A study of Homo sapiens with 2 samples.

Results

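The genes described here are 51 components of the nucleolar machinery that makes ribosomes, from subunits of RNA polymerase I to the assembly factors of both ribosomal subunits. Members were the probe sets of the value table annotated to exactly 1 gene symbol on that list, which gave 95 of 54675 probe sets. The probe set that was brightest on average over both arrays stood for its gene, and a gene counted as measured when this probe set was at or above a floor of 84.1 signal units in either group. On these terms 46 of the 51 genes were measured, among 12766 measured genes in all. BOP1, GNL3, NOP56 and DKC1 had no probe set annotated to a single symbol and were not analysed here. NOP53 had only a probe set below the floor on both arrays, at 78.4 in hepatospheres and 16.3 in differentiated cells.

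RNA came from PLC/PRF/5 cells, a long-established line of human hepatocellular carcinoma, and was read on 2 Affymetrix U133 arrays, 1 per group. Chemoresistant hepatospheres were spheroids of these cells kept under cisplatin, a platinum compound that crosslinks DNA, and doxorubicin, an anthracycline that traps topoisomerase II on DNA. Differentiated cells had been spheroids too, and attached to the dish once fetal bovine serum was added, and the labels do not say whether those spheroids had met the drugs. Growth form, serum and possibly drug exposure therefore differed together and cannot be told apart, and with 1 array per group there is no test and no error for any difference.

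Ribosome production starts in the nucleolus, where RNA polymerase I transcribes the ribosomal DNA into one long precursor. Small nucleolar ribonucleoproteins guide its chemical modification, and the small subunit processome and a parallel set of large subunit factors fold and cut it while ribosomal proteins are added. The pathway takes a large share of a growing cell's energy, is driven by the transcription factor MYC in many cell types including liver, and is slowed when growth signals stop. DNA-damaging drugs, doxorubicin among them, can disturb it, and free ribosomal proteins then bind MDM2.

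The 2 arrays had the same trimmed mean signal, 500.1, set by the authors' scaling, and median signals of 84.1 in hepatospheres and 70.6 in differentiated cells. Poly(A) control RNAs read 2.05-fold higher on the hepatosphere array, and the 3' to 5' signal ratio of ACTB was 2.64 in hepatospheres and 1.48 in differentiated cells, while that of GAPDH was 1.04 in hepatospheres and 0.987 in differentiated cells. The members are also given scaled to the poly(A) controls below, and the part of the ACTB ratio in the results was not tested. Of 9 hepatocyte and hepatoma markers, 8 had a probe set of 1 symbol, and all 8 were above the floor on both arrays, with summed signals of 116854 in hepatospheres and 100083 in differentiated cells. Single markers went both ways. In hepatospheres TTR was 5.62-fold and ALB 2.71-fold higher, AFP was 5.66-fold and KRT8 2.16-fold lower, and 4 were within 2-fold. Of 6 fibroblast markers, 4 were above the floor in hepatospheres and 1 in differentiated cells, with summed signals of 4067 in hepatospheres and 427 in differentiated cells, led by LUM at 2677 in hepatospheres and 1.14 in differentiated cells, while COL1A2 and PDGFRB were below the floor on both arrays. None of 3 leukocyte markers with a probe set (CD14, CD3E, PTPRC) reached the floor. Of 4 endothelial markers 1 did, PECAM1. What part these markers have in the results was not tested.

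In hepatospheres 41 of the 46 measured members read lower than in differentiated cells, and 5 read higher. At least 2-fold lower were 23 members, 50% of them, where 8.83% of all measured genes were that much lower. At least 2-fold higher were 0 members, where 12.5% of all genes were. A lower signal of any size was seen in 89.1% of members and in 47.3% of all genes. The median difference of the members, hepatospheres minus differentiated cells, was -0.98 on the log2 scale (lower quartile -1.29, upper quartile -0.31), a signal 1.98-fold lower, and that of all genes was 0.05 (quartiles -0.46 and 0.54). No measured member was below the floor on either array, and the lowest signals among them were 201 in hepatospheres and 510 in differentiated cells, so none of these differences is a bound. The 23 members that were 2-fold lower lie on 13 chromosomes, with at most 5 on one of them. In a bulk sample, less RNA per cell and fewer cells that express a gene cannot be told apart.

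**Figure D1:**
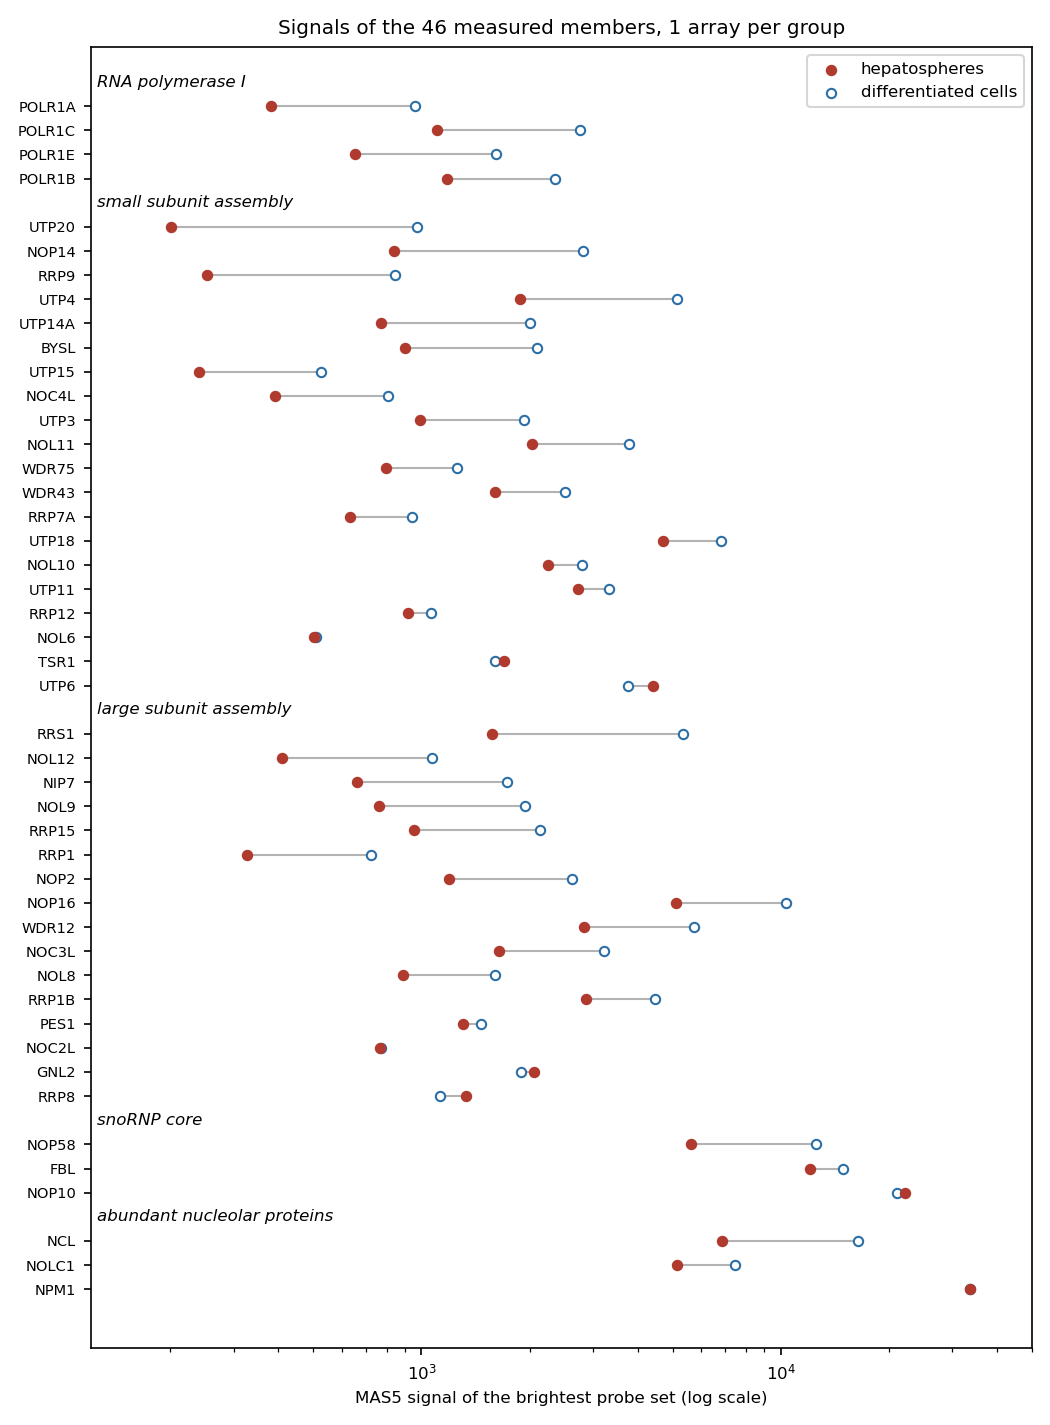
MAS5 signals (log axis) of the brightest probe set of each of the 46 measured members in hepatospheres (filled) and differentiated cells (open), 1 array per group, grouped by role and ordered by difference. Filled points lie left of open ones for 41 members, most widely for UTP20 (201 against 974), while those of NPM1 and NOC2L nearly coincide; levels of different genes are not comparable.

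All 4 listed subunits specific to, or used by, RNA polymerase I were at least 2-fold lower in hepatospheres on their brightest probe sets. POLR1A, the largest catalytic subunit, read 381 in hepatospheres and 961 in differentiated cells, a difference of -1.33. POLR1B, the second-largest subunit, which completes the active site, read 1175 in hepatospheres and 2352 in differentiated cells, just past 2-fold. POLR1C, which RNA polymerases I and III share, read 1106 in hepatospheres and 2764 in differentiated cells (-1.32). POLR1E, known in mammals as PAF53 and involved in initiation, read 655 in hepatospheres and 1616 in differentiated cells (-1.30). The differences of POLR1A, POLR1C and POLR1E were therefore nearly the same on the brightest probe sets, but the other probe sets did not all share that size. For POLR1A the other probe sets, both dimmer, stood at -0.23 and -0.03, and the mean over its probe sets was -0.53. POLR1C stood at -0.70 on its other probe set, and POLR1B at -1.05, -1.06 and -0.12 on its others. Both POLR1E probe sets at or above the floor were over 2-fold lower, at -1.30 and -1.18.

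Small subunit assembly factors, of the processome and of later steps, were lower in 18 of 20 members, 8 of them by at least 2-fold (median -0.78). UTP20, a very large repeat protein of the processome, was the lowest of all members at 201 in hepatospheres and 974 in differentiated cells, 4.85-fold lower, and ranked 70 from the lowest of the 12766 measured genes. NOP14 read 840 in hepatospheres and 2823 in differentiated cells (-1.75), and NOC4L, the homologue of its yeast partner Noc4, read 392 in hepatospheres and 809 in differentiated cells (-1.05). RRP9, the protein that marks the U3 small nucleolar RNA, read 253 in hepatospheres and 842 in differentiated cells (-1.73). Each of these 4 was more than 2-fold lower, and each had a single probe set.

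The subcomplex that joins the precursor first, and that in human cells is also needed for transcription of the ribosomal DNA, was represented by 5 members, which were lower by unequal amounts. UTP4, also called cirhin and mutated in an inherited childhood cirrhosis of the liver, read 1884 in hepatospheres and 5154 in differentiated cells (-1.45), and its other probe set gave -1.47. UTP15 read 241 in hepatospheres and 526 in differentiated cells (-1.12). NOL11, WDR75 and WDR43 stood at -0.89, -0.66 and -0.65, under 2-fold. HEATR1, a partner of the same subcomplex outside the 51 genes, stood at -0.35, at 1651 in hepatospheres and 2102 in differentiated cells.

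Among the remaining small subunit factors, UTP14A, which activates a processome helicase in yeast, read 769 in hepatospheres and 2011 in differentiated cells (-1.39). BYSL (bystin), needed for late maturation of the small subunit, read 899 in hepatospheres and 2096 in differentiated cells (-1.22). UTP3 stood at -0.96, just short of 2-fold, and RRP7A, UTP18, NOL10, UTP11 and RRP12 stood between -0.57 and -0.21. RRP12 counts as lower on its brightest probe set alone, since its other 3 at or above the floor read higher, at 0.20, 0.34 and 0.44. NOL6, whose yeast counterpart works beside that of RRP7A, read 503 in hepatospheres and 510 in differentiated cells (-0.02). TSR1, a factor of late cytoplasmic small subunit maturation, and UTP6 were the 2 members of this class that read higher, at 0.09 and 0.23, but 3 of 4 TSR1 probe sets read lower, down to -0.79.

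Large subunit factors were lower in 14 of 16 measured members, 9 of them by at least 2-fold (median -1.01). RRS1, which helps to bring the 5S ribosomal RNA into the particle, read 1573 in hepatospheres and 5338 in differentiated cells, 3.39-fold lower and the lowest of this class. NOL12 and NIP7 both stood at -1.38. NOL12 read 409 in hepatospheres and 1067 in differentiated cells, although its dimmer probe set stood at 0.37, with a signal below the floor in differentiated cells, whereas both probe sets of NIP7 were lower, at -1.38 and -1.76. NOL9, a kinase that acts on the end of the cut internal spacer, read 764 in hepatospheres and 1940 in differentiated cells (-1.35), with all 3 probe sets at or below -0.97.

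RRP15 (-1.16), RRP1 (-1.15), NOP2 (-1.14), NOP16 (-1.01) and WDR12 (-1.01) were the other large subunit factors past 2-fold. NOP2, a methyltransferase for cytosine in the large ribosomal RNA, read 1190 in hepatospheres and 2619 in differentiated cells. NOP16 read 5116 in hepatospheres and 10330 in differentiated cells on its brightest probe set, and its 4 probe sets ranged from -1.86 to -0.39. NOC3L (-0.96) lay just outside 2-fold, followed by NOL8 (-0.85) and RRP1B (-0.64).

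Related proteins of this class did not stand at the same value. In the PeBoW complex, WDR12 read 2842 in hepatospheres and 5731 in differentiated cells, whereas PES1 read 1303 in hepatospheres and 1460 in differentiated cells (-0.16). The remaining subunit, BOP1, was not analysed here. Of the paralogous pair RRP1 and RRP1B, RRP1 read 326 in hepatospheres and 722 in differentiated cells, and RRP1B 2869 in hepatospheres and 4460 in differentiated cells. The dimmer RRP1B probe set went the other way, at 219 in hepatospheres and 64.5, below the floor, in differentiated cells. NOC2L, a nucleolar protein that also inhibits histone acetylation, read 766 in hepatospheres and 774 in differentiated cells (-0.01), against NOC3L at -0.96. The GTPase GNL2 (0.11) and RRP8 (0.24), a methyltransferase that in human cells also belongs to a complex silencing ribosomal DNA when energy is short, read slightly higher in hepatospheres.

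Core proteins of the small nucleolar ribonucleoproteins and the most abundant nucleolar proteins were split. NOP58, a scaffold of the box C/D particles that direct ribose methylation, read 5609 in hepatospheres and 12511 in differentiated cells (-1.16). FBL (fibrillarin), the methyltransferase of the same particles, read 12022 in hepatospheres and 14925 in differentiated cells (-0.31). NOP10, of the box H/ACA particles that direct pseudouridylation, read 22175 in hepatospheres and 21060 in differentiated cells (0.07). One of these 3 was therefore 2-fold lower, and the others were close to equal. NCL (nucleolin), which binds the precursor RNA, read 6857 in hepatospheres and 16363 in differentiated cells (-1.25). NOLC1, a nucleolar phosphoprotein that associates with both particle types, read 5128 in hepatospheres and 7444 in differentiated cells (-0.54). NPM1 (nucleophosmin), a chaperone of the outer nucleolus, read 33505 in hepatospheres and 33705 in differentiated cells (-0.01), and its other probe sets stood at -0.30 and -0.39.

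Across the 46 members the difference had a Spearman correlation of 0.28 with mean log2 signal, against -0.15 over all measured genes, as a description of these arrays. Both values come from the same pair of libraries. Within 0.25 of 0 on the log2 scale were 10 members, from every role but RNA polymerase I.

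Since no replicate exists, the probe sets of a gene give the nearest measure of repeatability, within each array. Over 2961 genes with 2 probe sets above the floor on both arrays, the median gap between the differences of the 2 was 0.37 on the log2 scale and its 90th percentile 1.15. For the 11 members of that kind the median gap was also 0.37. Of the 23 members that were 2-fold lower, 16 had differences larger in size than that 90th percentile and 7 smaller ones (POLR1B, WDR12, NOP16, NOC4L, UTP15, NOP2 and RRP1). These members were already chosen at 2-fold, so the count is a description and no test of them. The 16 include POLR1A and NOL12, whose own probe sets at or above the floor lay 1.30 and 1.75 apart. Of the 95 member probe sets, 83 were at or above the floor in either group. Of these, 72 read lower in hepatospheres and 11 higher, with 31 at least 2-fold lower and 1 at least 2-fold higher. Of 23 members with more than 1 such probe set, all probe sets were lower for 18 and mixed for 5 (NOL12, RRP1B, RRP12, NOC2L and TSR1). Neither count was made over all probe sets. Per gene, 47.3% of all measured genes were lower, 8.83% at least 2-fold lower and 12.5% at least 2-fold higher. The gap between probe sets covers differences between probes and transcript forms, not differences between cultures.

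**Figure D2:**
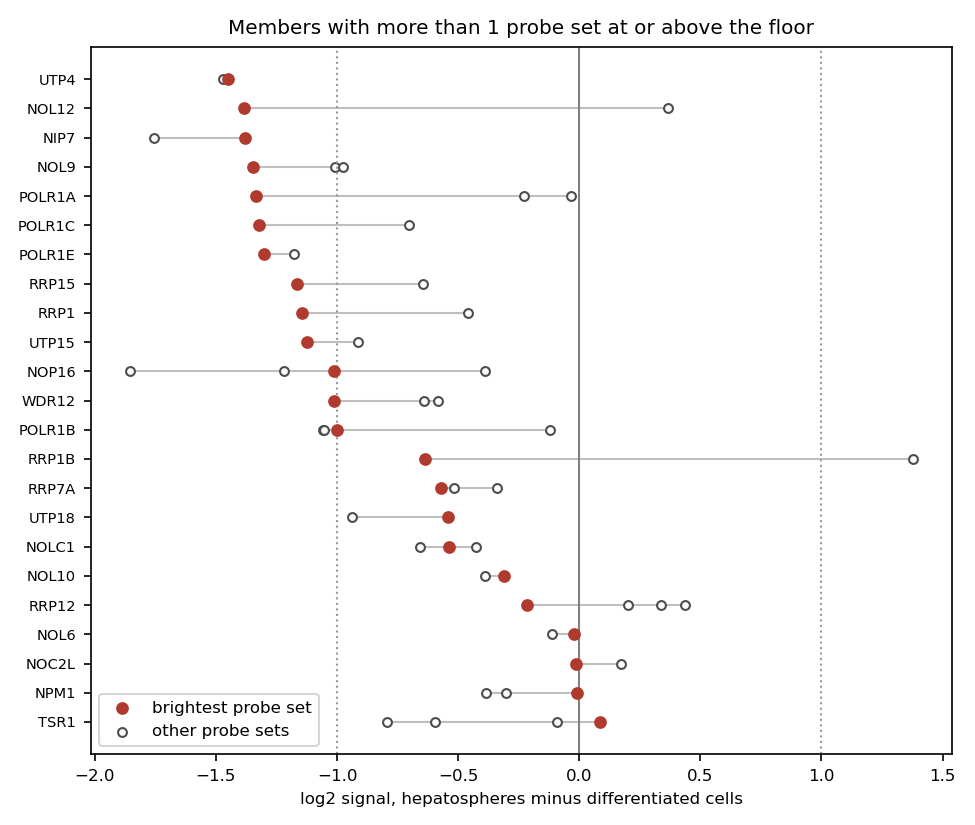
Log2 signal in hepatospheres minus differentiated cells for each probe set at or above the floor, for the 23 members with more than 1; filled points are the brightest probe set, open points the others, and dotted lines mark 2-fold. All points lie below 0 for 18 members, and the widest disagreement is that of RRP1B, from -0.64 to 1.38.

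Promoters of the members, taken from RefSeq (GRCh38.p14) as 250 bases before to 50 bases after the gene start, were searched for 3 motifs on both strands, each matched exactly. These were the E-box CACGTG, which reads the same on both strands and is bound by MYC and by its antagonists of the MXD family, CCGGAAG, an ETS-type motif, and an NRF1-type motif (GCGCA, any base, then GCGC). Matches of different motifs overlapped in 0 of the member promoters. A promoter was listed for 39 of the 46 measured members. Of those, 16 held an E-box (41.0%), against 10.2% of the promoters of measured genes and 7.43% of all promoters of the same length. The ETS-type motif was found in 41.0% of the member promoters and 18.8% of those of measured genes, and the NRF1-type motif in 20.5% of the member promoters and 11.6% of those of measured genes. Median GC content was 64.0% in the member promoters and 65.0% in those of measured genes.

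The E-box lay at the gene start in nearly all of these promoters. In 15 of the 16 it began within 50 bases of the start, whereas among promoters of measured genes with an E-box that held for 41.8%. An E-box was in 7 of 20 promoters of members at least 2-fold lower (35%) and in 9 of 19 promoters of members within 2-fold (47.4%). The ETS-type motif was in 45% of the promoters of the 2-fold lower members and 36.8% of those of members within 2-fold, and the NRF1-type motif in 20% of the promoters of the 2-fold lower members and 21.1% of those of members within 2-fold. A match describes the letters of the window and is not evidence of binding.

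The following windows, 70 bases before to 30 bases after the start in the direction of transcription, show this placement, with the E-box in capitals. The 4 members with the lowest differences among those whose E-box lies inside the window come first, where the site begins 10 bases before the start of UTP20, 5 before that of RRP9, 16 before that of UTP4 and at base 16 after that of NOP14.
UTP20, chr12:101280035-101280134, plus strand: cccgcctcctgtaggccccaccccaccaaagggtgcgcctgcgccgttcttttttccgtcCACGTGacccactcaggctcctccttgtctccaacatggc
NOP14, chr4:2963377-2963476, minus strand: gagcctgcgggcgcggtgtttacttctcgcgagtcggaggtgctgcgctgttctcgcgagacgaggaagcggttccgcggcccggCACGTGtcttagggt
RRP9, chr3:51941875-51941974, minus strand: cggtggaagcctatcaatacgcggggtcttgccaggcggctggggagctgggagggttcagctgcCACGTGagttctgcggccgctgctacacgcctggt
UTP4, chr16:69132579-69132678, plus strand: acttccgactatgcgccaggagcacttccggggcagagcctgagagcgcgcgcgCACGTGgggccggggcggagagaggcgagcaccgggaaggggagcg

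The 4 members of the same kind with differences nearest to 0 carry the same letters at similar distances, at base 14 after the start of NOL6 and of PES1, at base 4 after that of GNL2 and 11 bases before that of NOP10.
NOL6, chr9:33473895-33473994, minus strand: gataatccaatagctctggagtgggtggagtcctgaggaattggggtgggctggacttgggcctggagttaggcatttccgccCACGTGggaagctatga
NOP10, chr15:34343107-34343206, minus strand: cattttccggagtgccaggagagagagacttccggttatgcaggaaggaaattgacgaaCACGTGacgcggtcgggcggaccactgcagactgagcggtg
GNL2, chr1:37595908-37596007, minus strand: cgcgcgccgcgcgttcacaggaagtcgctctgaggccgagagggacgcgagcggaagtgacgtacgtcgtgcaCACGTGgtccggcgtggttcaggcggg
PES1, chr22:30591881-30591980, minus strand: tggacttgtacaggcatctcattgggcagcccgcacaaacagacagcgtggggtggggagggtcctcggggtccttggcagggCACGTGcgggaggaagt

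UTP20 with a difference of -2.28 and NOP10 with 0.07 thus hold the E-box within 1 base of the same position.

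**Figure D3:**
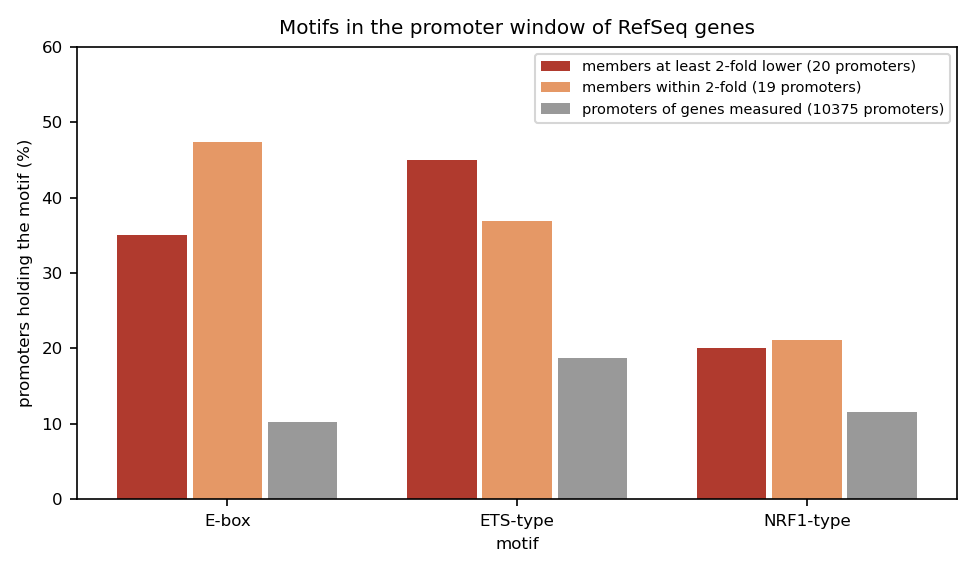
Percent of RefSeq promoter windows that hold each motif, for members at least 2-fold lower in hepatospheres (20 promoters), members within 2-fold (19) and all measured genes (10375). The E-box bars of both member sets, at 35% and 47.4%, stand above the 10.2% of measured genes, and the bar of the 2-fold lower members is the shorter of that pair.

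MYC and its antagonists were among 10 measured genes of the MYC network. Of these, 2 were at least 2-fold higher and 0 at least 2-fold lower, beside 12.5% and 8.83% of all genes. MYC read 2185 in hepatospheres and 3815 in differentiated cells, 1.75-fold lower. MXD1, which competes with MYC for the shared partner MAX, read 569 in hepatospheres and 93.0 in differentiated cells, 6.12-fold higher from a signal close to the floor. MXI1, a second antagonist, stood at 0.40, MXD3 at -0.77 and MYCL at 1.05. By any size, 4 of the 10 were lower and 6 higher. The lower MYC and higher MXD1 signals stood beside the lower nucleolar genes. MXD3, of the same family as MXD1, was lower instead, and MYCL was higher where MYC was lower. The part of these genes in the lower nucleolar signals was not tested.

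Further genes of the same pathway were taken from lists outside the 51. Small subunit factors outside the members numbered 38, of which 11 read lower by 2-fold or more and 1 higher, and 31 were lower by any size (median -0.70). TSR2 (-1.42), DDX10 (-1.29), the RNA acetyltransferase NAT10 (-1.27) and AATF (-1.23) were the furthest. BUD23, a methyltransferase of the small subunit RNA named here after its value was seen, was the one 2-fold higher, at 1.07. Large subunit factors outside the members numbered 35, of which 9 read lower by 2-fold or more and 0 higher (median -0.70), led by PAK1IP1, at 679 in hepatospheres and 2316 in differentiated cells. DDX51, DDX56 and NLE1 followed at -1.64, -1.63 and -1.53. Other ribonucleoprotein genes had 11 of 12 lower and 1 higher by any size (median -0.58), and those past 2-fold were 2 lower ones, NAF1, needed to assemble box H/ACA particles, 3.67-fold lower, and TCOF1, the treacle protein, which works with polymerase I on ribosomal DNA, 2.09-fold lower. The members' lower signals were thus accompanied by lower signals in the other assembly factors, in shares of 28.9%, 25.7% and 16.7% past 2-fold beside the 8.83% of all genes.

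The rest of the RNA polymerase I apparatus was closer to equal. Of 11 measured genes, 0 were 2-fold apart and 8 were lower (median -0.42). RRN3, the factor that makes the polymerase competent to initiate, read 729 in hepatospheres and 1453 in differentiated cells (-0.99), and POLR1G stood at -0.87. UBTF, which binds ribosomal DNA and keeps it open, read 455 in hepatospheres and 486 in differentiated cells (-0.10), and POLR1D, shared with polymerase III, stood at -0.42. The termination factor TTF1 and POLR1F stood at -0.71 and -0.60.

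Subunits of the other polymerases were mixed or closer to equal. Polymerase III subunits had 4 of 10 lower and 6 higher by any size (median 0.13, but -0.10 with the mean over probe sets and -0.91 scaled to poly(A) controls). Past 2-fold 2 were lower, 20% beside the 8.83% of all genes, and 1 was higher. POLR3B and POLR3C stood at -1.52 and -1.07 and POLR3D at 1.59. Polymerase II subunits had 5 of 7 lower and 0 past 2-fold (median -0.20), from POLR2D at -0.80 to POLR2C at 0.36. Subunits shared between polymerases had 4 of 5 lower and 0 past 2-fold (median -0.35), with POLR2L, present in all 3 enzymes, at -0.99 and POLR2K at 0.37. The exosome, which trims the precursor from its end, had 8 of 12 subunits lower and 4 higher by any size (median -0.45). Past 2-fold 3 were lower, 25% beside the 8.83% of all genes, and 0 higher. EXOSC2 stood at -1.69, EXOSC9 at -1.65, EXOSC3 at -1.10 and EXOSC6 at 0.71.

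Messages of the cytosolic ribosomal proteins were close to equal on the deposited scale. Of 36 measured genes, 0 were 2-fold apart, and they spanned only -0.00 to 0.32 (median 0.18, but 0.00 after quantile normalization and -0.86 scaled to poly(A) controls). RPS16 read 52600 in hepatospheres and 42270 in differentiated cells, and RPS19 read 54610 in hepatospheres and 44785 in differentiated cells, close to the highest signals on the arrays, 59912 and 51583. How far such bright probe sets can register a difference was not tested.

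**Figure D4:**
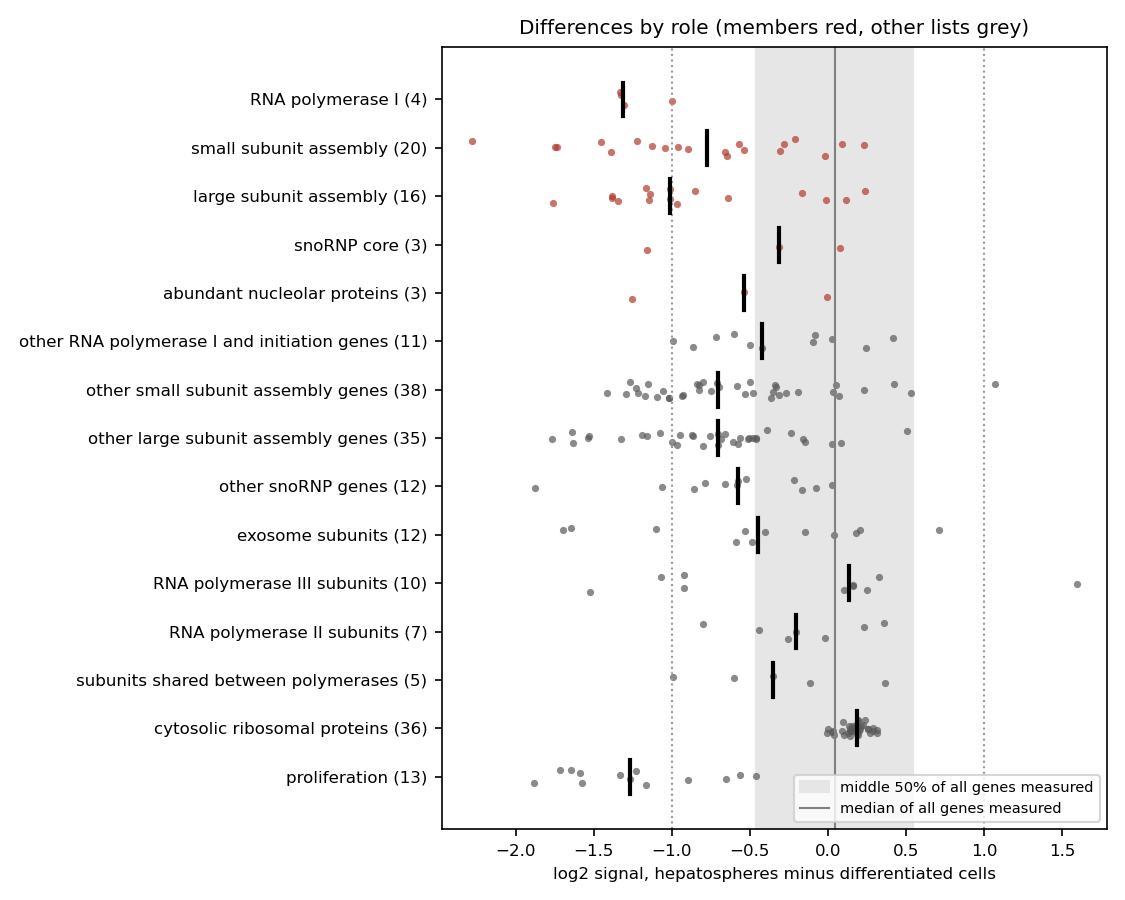
Log2 signal in hepatospheres minus differentiated cells for each measured gene (points) by role of the members (red) and for other lists (grey), with the number of genes in brackets; black bars are medians, dotted lines mark 2-fold, and the band holds the middle 50% of all measured genes. All 4 polymerase I members lie at or beyond -1, while the 36 ribosomal proteins cluster between -0.00 and 0.32.

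Proliferation markers were lower too. All 13 measured were lower, 9 of them by at least 2-fold (median -1.27). That share, 69.2%, was larger than the members' 50% (median -0.98) and the 8.83% of all genes. MCM4 was 3.68-fold lower, and MKI67 read 1053 in hepatospheres and 2538 in differentiated cells. Their summed signal was 37082 in hepatospheres and 82650 in differentiated cells. What part these genes have in the members' difference was not tested. Of 5 measured genes of p53 and nucleolar surveillance, 1 was at least 2-fold higher, 1 at least 2-fold lower and 3 within 2-fold. CDKN1A, a p53 target that encodes the cell cycle inhibitor p21, read 1528 in hepatospheres and 159 in differentiated cells, 9.58-fold higher. MDM2, to which free ribosomal proteins bind, read 1538 in hepatospheres and 4368 in differentiated cells, 2.84-fold lower. CDKN2A, RRM2B and MDM4 stood at -0.21, 0.29 and 0.18. The loading genes ACTB and GAPDH stood at -0.22 and 0.15.

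The median difference of the members stayed below 0 under each scaling tried, and its size was relative to the bulk of genes. Scaled to the poly(A) controls, the median of all genes moved to -0.94, and that of the members to -2.02. By that scale 41 of 46 members were at least 2-fold lower, beside 46.9% of all genes. The gap between the members' median and that of all genes was -1.03 as deposited and -1.09 with poly(A) scaling.

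**Figure D5:**
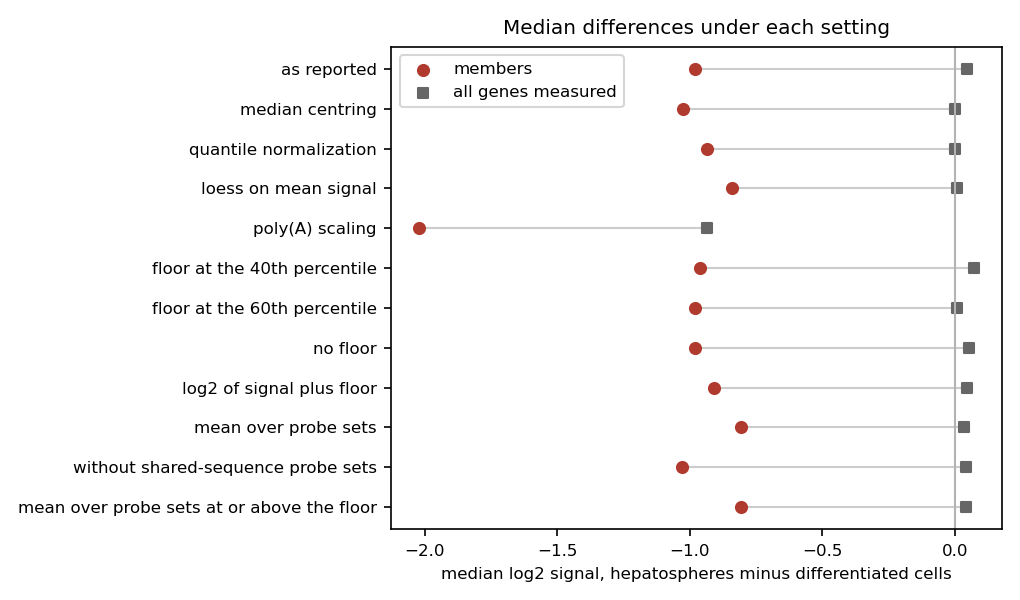
Median log2 signal in hepatospheres minus differentiated cells of the measured members (circles) and of all measured genes (squares) under the reported processing and 11 alternatives. The members lie below all genes in each, at -0.98 against 0.05 as reported and at -2.02 against -0.94 with poly(A) scaling.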

How the data were processed

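Total RNA, extracted with Trizol and biotin-labelled per the labels' protocols, was hybridised to 2 arrays, 1 per group, and groups were taken from the source names. The deposited intensity values are linear MAS5 signals, per the submitters' processing notes. Neither version nor scaling target is given in the sources used here. MAS5 subtracts background, so that weak signals are noisy, and sets each array to one overall level, so that the bulk of genes is equal. Precision is limited by the number of arrays.

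Of 54675 probe sets, 62 were controls, 41091 had 1 gene symbol in GEO's platform annotation and 1801 had several and were not named. Gene identifiers of 41037 were found in a RefSeq table (GRCh38.p14), and 0 symbols needed updating. The 19775 gene symbols were each represented by their brightest probe set on average. The larger of both arrays' median signals, 84.1, served as the floor, and lower signals were set to it. The log2 difference (hepatospheres minus differentiated cells) was counted at 2-fold, with no test. The members and lists were chosen with earlier results of these data known. Any member could be named. From each other list, up to 4 genes with the largest differences were named, plus 12 fixed genes (POLR1D, UBTF, RRN3, HEATR1, MYC, MXD1, MXI1, MDM2, CDKN1A, MKI67, ACTB and GAPDH). The calculation was tested on simulated data with known folds. Alternatives were 4 scalings (median centring, quantile, loess with span 0.3, poly(A) controls), a floor at the 40th or the 60th percentile, none at all, adding the floor to the signal before log2, the mean over probe sets, and leaving out probe sets named _s_at, _x_at or _a_at. The mean over probe sets at or above the floor, with signals raised to it before averaging, was added after seeing the data. Python 3.11.15 was used with pandas 2.3.3, numpy 2.4.6, scipy 1.17.1, matplotlib 3.10.9 and statsmodels 0.14.6.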

Additional observations from a re-analysis of the deposited data

How the results depend on the processing

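No paired analysis was possible because each group had 1 array and no result came from a test. All 23 members that were at least 2-fold lower stayed below 0 under each of the 11 alternatives that measured them, and 10 stayed 2-fold lower under each. Of the 4 RNA polymerase I members only POLR1E did. POLR1B stood at -0.96 with quantile normalization and -0.85 with loess, and POLR1A and POLR1C are given below. The count of members at least 2-fold lower was 41 with poly(A) scaling and between 17 and 25 under the others, with the lowest from the mean over probe sets. That setting averages signals as deposited, probe sets below the floor included, and applies the floor to the mean. It put 1 member, UTP11, at least 2-fold higher (1.06). With only probe sets at or above the floor, each signal raised to it before averaging, 17 members were 2-fold lower and 0 higher. Under poly(A) scaling the median was -2.02 for the members, -2.35 for RNA polymerase I, -1.82 for small subunit assembly, -2.05 for large subunit assembly, -1.35 for the ribonucleoprotein core and -1.58 for the abundant nucleolar proteins. Other alternatives moved these medians by less than 1.5-fold in signal. With either mean over probe sets, however, the median of RNA polymerase I was -0.91, under 2-fold. The list median of ribosomal proteins moved to 0.00 with quantile normalization, and its sign changed with poly(A) scaling, at -0.86. The sign of the list median also changed for polymerase III, at -0.91 with poly(A) scaling and -0.10 with the mean over probe sets. With poly(A) scaling all 46 members were below 0, including the 5 that read higher as deposited. Members close to 0 also changed sign elsewhere, such as NOL6 (0.44) and TSR1 (-0.35) with the mean over probe sets and NOP10 (-0.02) with loess. Single members that moved by over 1.5-fold in signal were, with the mean over probe sets, POLR1A (-0.53), NCL (-0.28), NOL12 (-0.37), UTP14A (-0.43), RRP1B (0.56), UTP6 (0.85), NOL10 (-1.26, but -0.35 when signals were raised to the floor first) and PES1 (-1.26), and without shared-sequence probe sets, which left 34 members, NOP16 (-1.86), POLR1C (-0.70) and RRP12 (0.44). For NCL, UTP14A, PES1 and UTP6 the other probe set was below the floor on both arrays. With only probe sets at or above the floor these 4 stood at -1.25, -1.39, -0.16 and 0.23, as on the brightest probe set. What moved the other members was not tested. Weak signals limit the dim probe sets, and no replicate bounds any difference.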
